A study of Mus musculus with 16 samples.

Results

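Plin2, Fabp4, Lpl and Car3, genes linked to lipid storage and to fat tissue, were followed in the kidneys of 4 Pept2 knockout mice. They are 4 of the 6191 genes that had a value in every mouse and in each labelling orientation, and they were read by all 7 array probes that name 1 of them alone. The genes were picked with earlier results of these arrays in view, so their own ratios and their spread between mice are given as a description. No p is printed for them, and nothing is read from the counts of those that passed a threshold. The question was whether the 4 genes moved together from kidney to kidney or each in its own way. They did not all share a pattern. Plin2 and Fabp4 were both highest in mouse 2 but parted in mouse 3. Fabp4 and Car3 lay on the same side of their own means in 4 of 4 mice, although Fabp4 was close to its mean in mice 1 and 3. Plin2, Fabp4 and Car3 were all below their means in mouse 4. Lpl, as the mean of its 3 probes, stood at nearly the same distance below the wild-type pool in every mouse, although probe 20123 read 0.05 in mouse 4.

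Cells store triglyceride in lipid droplets, whose surface is covered by coat proteins. In most tissues outside fat that coat is perilipin 2, the product of Plin2, and its level tends to follow the amount of stored lipid. Fat cells make large amounts of Fabp4, a carrier of fatty acids in the cytosol that capillary endothelium and macrophages also make, and of Car3, a cytosolic carbonic anhydrase shared with skeletal muscle. Lpl encodes lipoprotein lipase, which releases fatty acids from circulating lipoproteins at the capillary wall and is made in fat, muscle and several other tissues, kidney among them.

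The 4 tested animals were males homozygous for the loss of Pept2 (the gene now named Slc15a2, encoding a proton-coupled peptide transporter of the kidney tubule), aged 88 days give or take 2, on a mixed C57BL/6 and 129Sv background. Their reference was 1 pool of RNA from the right kidneys of 5 wild-type mice, all males of the same line and age killed in the morning. Right kidneys were taken throughout, and in such bulk tissue fewer cells of a type and less RNA per cell cannot be told apart. Each knockout RNA was set against that pool on 4 two-colour cDNA arrays, 2 with the knockout RNA in channel 1 and 2 with it in channel 2. The same pool stands under every ratio, no wild-type animal was analysed singly here, and the number of arrays and mice limits the precision.

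Values are log2 ratios of knockout over pool, on which 0 is the level of the pool and 1 a doubling. They give no absolute level, so the 4 genes cannot be ranked by abundance and the label of the tissue could not be checked by level. That a marker could be tested is no check either: 7121 of the 11723 probes naming 1 gene were tested. So were 6 of 11 fat markers and 6 of 14 skeletal muscle markers on the array. Of 12 proximal tubule markers 8 were on the array, and all 8 were tested, with a median ratio of 0.03. Of these 8, Slc22a8, an organic anion transporter gene, was higher (0.48, adjusted p = 0.0149 in limma), a call lost without any 1 mouse (adjusted p 0.0612 to 0.133), with Miox at 0.16 and Kap at -0.10. The direction is the likely one and rests on Slc15a2, which was negative on all 16 arrays (mean -2.51, SD 0.31 over 4 mice) when the deposited value was read as channel 1 over channel 2. Read the other way, every "above" and "below" given here would be exchanged, while the differences among the 4 genes would keep their sizes. Arrays of different mice were not always less alike than arrays of 1 mouse: the highest correlation across probes, 0.62, joined the third array of mouse 3 with the first of mouse 4. Leaving out either array kept each mean and range of the 4 genes within 1 SD of its value, although the mean of Car3 was 0.34 without array 1 of mouse 4, against 0.13 with it, because 1 of its probes then had too few values.

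The promoter of Plin2, the gene with the widest spread, is shown because members of the nuclear receptor family, which includes the fatty acid sensing PPARs, bind copies of the hexamer AGGTCA. The window runs from 250 bases before to 50 after the annotated start, on the minus strand of chr4:86670010-86670309 (RefSeq, GRCm38.p6), and is written 5′ to 3′ with the matches to AGGTCA (here as its reverse complement TGACCT) and to the E-box CACGTG in capitals.
Plin2 promoter: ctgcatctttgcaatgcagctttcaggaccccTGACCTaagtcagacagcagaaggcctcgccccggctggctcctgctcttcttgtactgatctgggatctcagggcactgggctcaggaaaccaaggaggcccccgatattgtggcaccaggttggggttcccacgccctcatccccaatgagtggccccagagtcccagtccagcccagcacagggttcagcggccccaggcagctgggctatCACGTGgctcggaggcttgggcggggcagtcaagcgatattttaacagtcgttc
The single AGGTCA match begins 218 bases before the start and the single CACGTG match 4 bases before it. Searched on both strands, AGGTCA is held by 16.3% and CACGTG by 7.15% of the 32851 promoter windows in the same table, so both are common and neither is a sign of a working site. The table held a promoter for 1 of the 4 genes.

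Plin2, the droplet coat gene, differed most between kidneys. On the 4 arrays of mouse 1 its probe (3376) read -0.37, -0.18, -0.59 and -0.19, and on those of mouse 2 it read 0.08, 0.34, 0.18 and 0.52. The arrays of mouse 3 read -0.79, -0.49, -1.07 and -0.59, and those of mouse 4 read -0.83, -0.57, -0.88 and -0.53. Every array of mouse 2 was above 0 and above every array of the other mice, while all 12 remaining values were below 0 and the arrays of mice 3 and 4 overlapped. The mouse values, each the mean of the orientation means, were -0.34, 0.28, -0.73 and -0.70 in mice 1 to 4. Plin2 transcript was therefore 2.02 times as abundant in mouse 2 as in mouse 3, a comparison from which the pool drops out. The mean over mice was -0.37 (SD 0.47, n = 4), or 1.3-fold lower in knockout kidney than in the pool. It rests in good part on mouse 2, without which it was -0.59, and on the orientation: it was -0.21 on arrays with the knockout RNA in channel 1 and -0.54 with it in channel 2.

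Fabp4, the fatty acid carrier of fat cells, macrophages and capillary endothelium, lay close to the pool on average and on both sides of it by animal. Its probe (2638) read -0.17, -0.31, -0.11 and 0.14 on the arrays of mouse 1 and 0.25, 0.29, 0.41 and 0.41 on those of mouse 2. It read 0.27, -0.17, 0.06 and -0.07 in mouse 3 and -0.34, -0.91, -0.30 and -0.33 in mouse 4. All arrays of mouse 2 were above 0 and all arrays of mouse 4 below it, and the arrays of mice 1 and 3 straddled 0 and overlapped each other. The mouse values were -0.11, 0.34, 0.02 and -0.47, a 1.75-fold difference between mice 2 and 4. Their mean was -0.06 (SD 0.34, n = 4), and without mouse 4 it was 0.08, on the other side of the pool.

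Lpl, the lipase of the capillary wall, was the steady one of the 4. Of 46 values from its 3 probes, 42 were below 0. The gene stood at -0.20, -0.22, -0.33 and -0.17 in mice 1 to 4, with a mean of -0.23 (SD 0.07, n = 4), or 1.17-fold lower in knockout kidney. The animals differed by at most 1.12-fold, less than the spread of arrays within some single animals (the arrays of mouse 3 ran from -0.51 to -0.19). Probe 2356 read -0.17, -0.13, -0.39 and -0.26 in the 4 mice and probe 3040 read -0.14, -0.25, -0.31 and -0.30. Probe 20123 read -0.27, -0.29 and -0.29 in mice 1 to 3 but 0.05 in mouse 4, so the probes did not give the same order of animals. The size varied with the orientation too: the gene was at -0.15 with the knockout RNA in channel 1 and at -0.31 with it in channel 2, below 0 in all 4 mice each time.

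Car3, the carbonic anhydrase of fat and muscle, was read by 2 probes that differed in height but ranked mouse 3 first. Probe 19583, with 15 values, read 0.13, 0.09 and -0.04 in mouse 1, 0.48, 0.48, 0.70 and 0.77 in mouse 2, 0.62, 0.80, 0.61 and 0.81 in mouse 3, and -0.29, 0.13, -0.06 and -0.03 in mouse 4. On that probe all 8 arrays of mice 2 and 3 lay above all 7 of mice 1 and 4, and mice 2 and 3 overlapped. Probe 5197, with 10 values, read -0.16, -0.66 and -0.28 in mouse 1, 0.07 and -0.15 in mouse 2, 0.61 and 0.37 in mouse 3, and -0.44, -0.26 and -0.21 in mouse 4. There mouse 3 stood alone above the others, and mouse 2 was at -0.04 against 0.61 on the first probe, so the height of Car3 in mouse 2 depends on which probe is read. Averaged over probes, Car3 was at -0.16, 0.28, 0.60 and -0.20 in mice 1 to 4, a 1.74-fold difference between mice 3 and 4. The mean of 0.13 (SD 0.38, n = 4) became -0.02 without mouse 3 and 0.32 when probe 19583 alone was used. On arrays 3 and 4 alone, where probe 5197 dropped out and probe 19583 was read by itself, mouse 2 was at 0.74 and mouse 3 at 0.71, so the order of these animals was not settled.

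**Figure D1:**
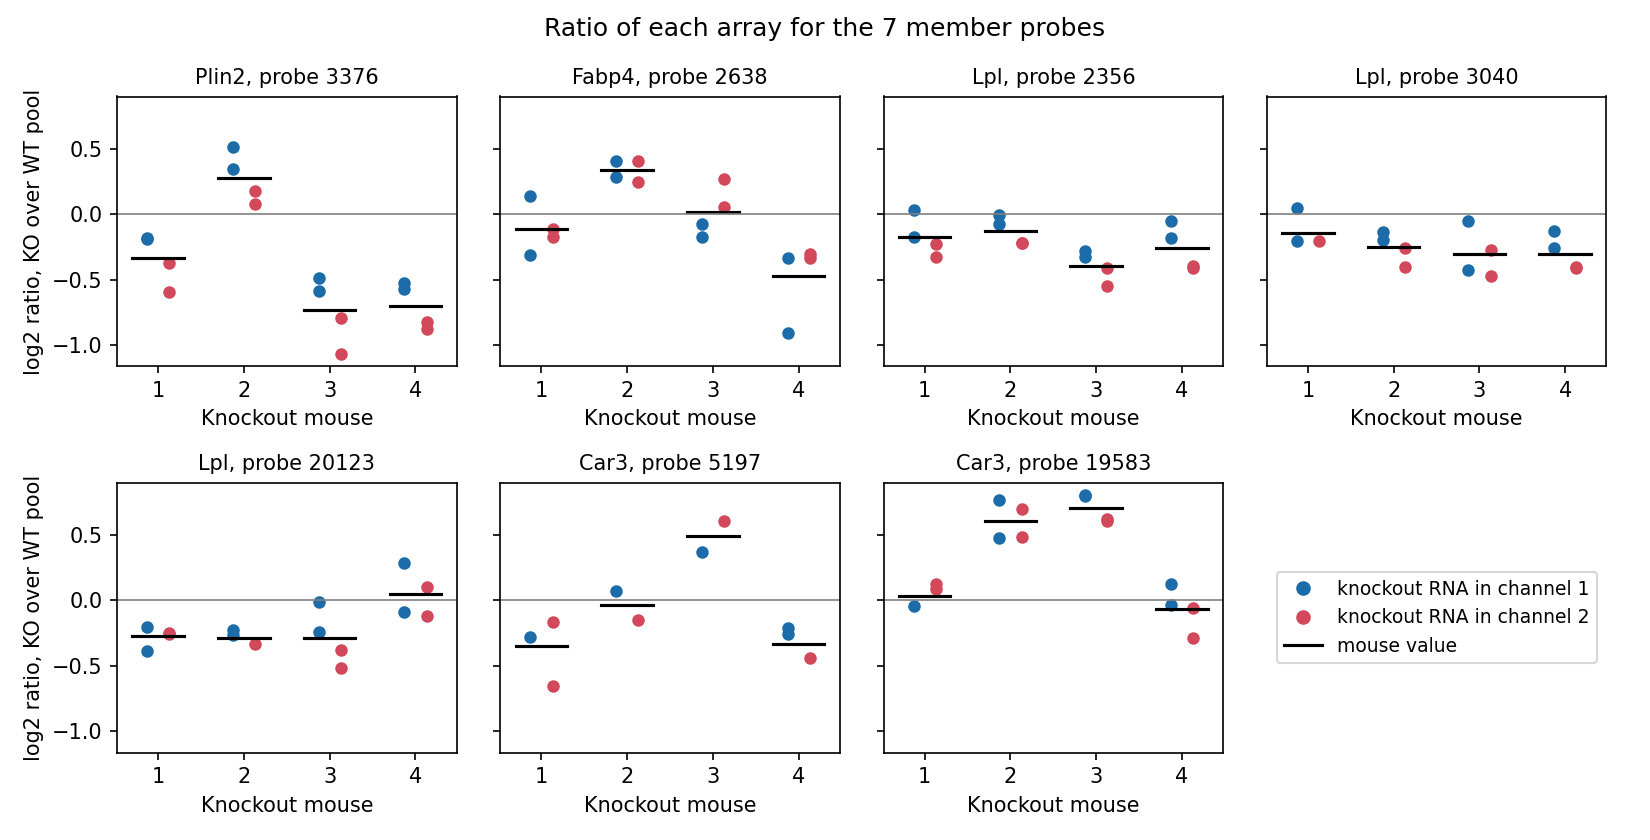
Log2 ratio of knockout over wild-type pool (vertical axis) on each array of each knockout mouse (horizontal axis), 1 panel per probe, coloured by the channel that held the knockout RNA, with bars at the mouse value. Plin2 and Fabp4 peak in mouse 2, both Car3 probes peak in mouse 3, and the mouse values of the Lpl probes stay below 0 with the exception of probe 20123 in mouse 4.

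Set against all genes, the spread between animals was wide for 3 of the 4. The range over mice was 1.01 for Plin2, 0.81 for Fabp4, 0.80 for Car3 and 0.16 for Lpl, where the median gene had a range of 0.22. A range as large as theirs was found in 0.695% of genes for Plin2, 1.28% for Fabp4, 1.34% for Car3 and 72.8% for Lpl. Plin2 and Fabp4 were read by 1 probe each, while Lpl is a mean of 3 probes with ranges of 0.26, 0.17 and 0.33. Its range is thus not a like comparison with those of single probes. In a moderated F test between the mice, 3 of the 4 genes passed an adjusted p of 0.05, as did 2.65% of the 6191 genes tested. In the limma test of knockout against the pool, 0 of the 4 passed, as against 0.21% of all genes (13 genes, with 0.0646% called higher and 0.145% lower). With 16 arrays and the mouse as a random block, 2 of the 4 passed, as did 403 of the 6191 genes. In that fit the correlation within mouse was 0.054, so arrays counted nearly as animals. Lpl alone was below the pool in all 4 mice, as were 14.3% of genes, and 0 of the 4 were above it in all mice, as were 11.4%. The genes were chosen on these same arrays, so nothing is read from these counts. The call between mice was not kept by Plin2 without mouse 2, nor by Fabp4 without mouse 2, without mouse 4 or on either pair of arrays alone.

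The members were next compared with each other within each animal, as the difference of their log2 ratios on the same RNA. Plin2 minus Fabp4 was -0.22, -0.06, -0.75 and -0.23 in mice 1 to 4, so that these genes were farthest apart in mouse 3. The SD of the difference between arrays of a mouse was 0.33. Such SDs were taken around the mouse mean alone, so they include any shift between the orientations, which the mouse values average out. With knockout RNA in channel 1 and in channel 2, Plin2 was at -0.21 and -0.54, and Fabp4 at -0.12 and 0.01. Plin2 minus Car3 was -0.18, -0.01, -1.33 and -0.50, the widest span of the 6 pairs (1.33). The SD of that difference between arrays of a mouse was 0.15. Fabp4 minus Car3 was 0.04, 0.05, -0.58 and -0.27, and the pair lay on the same side of its own means in 4 of 4 mice. Fabp4 deviated from its mean by only -0.06 in mouse 1 and 0.08 in mouse 3. With knockout RNA in channel 1 alone, Fabp4 was at -0.084 and -0.123 in mice 1 and 3, around a mean of -0.120. Car3 was then at -0.16 and 0.58 around a mean of 0.17, so the pair was on opposite sides in both mice, in mouse 3 by a very small deviation of Fabp4. With it in channel 2 alone, Fabp4 was at -0.14 and 0.16 in mice 1 and 3, around a mean of 0.01. Car3 was there at -0.15 and 0.61 around a mean of 0.09, so the pair was on the same side in both mice. Lpl differed from each of the others by a span of 0.86 to 1.03, in each case wider than the other gene's own range.

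**Figure D2:**
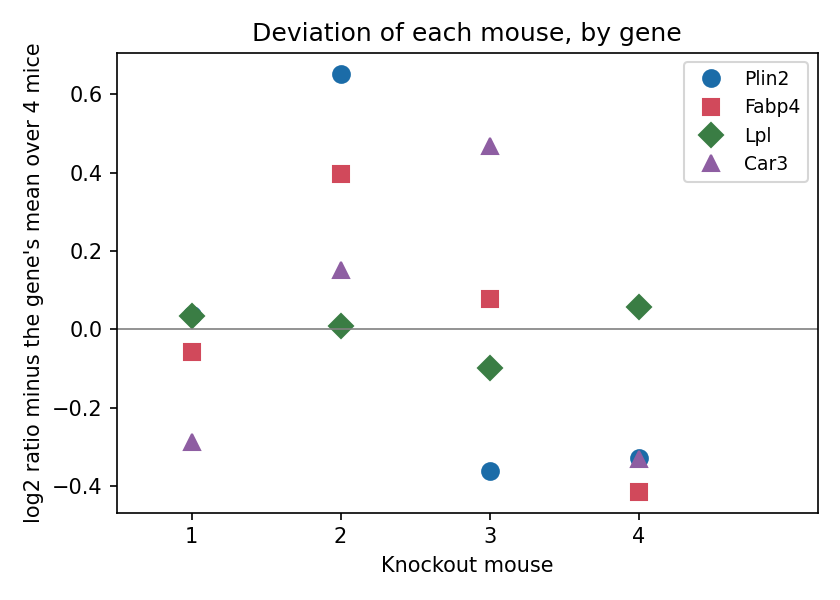
Log2 ratio of each knockout mouse minus the gene's own mean over the 4 mice (vertical axis), by mouse (horizontal axis), 1 symbol per gene. In mouse 3 Car3 lies 0.47 above and Plin2 0.36 below its mean, while in mouse 4 Plin2, Fabp4 and Car3 all lie between 0.33 and 0.41 below theirs and Lpl 0.06 above.

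The likeness of profiles was also described over the single arrays by Pearson's r, after each gene's mean in each orientation was taken away. The points are at most 16 arrays of 4 mice, they share the mice and the pool, and each r is a description of these arrays. Over 16 arrays r was 0.67 between Plin2 and Fabp4, 0.30 between Plin2 and Lpl and -0.30 between Fabp4 and Lpl. Over 15 arrays it was 0.59 between Fabp4 and Car3, 0.21 between Plin2 and Car3 and -0.59 between Lpl and Car3. Among 4655 genes compared, Fabp4 was 178th in likeness to Plin2 and 64th in likeness to Car3, while Plin2 was 87th and Car3 233rd in likeness to Fabp4. Lpl was 4612th in likeness to Car3. These pairs with Fabp4 were thus near the top of the order, although many genes outside the 4 were more alike. The highest with Plin2 were Sat1, which encodes an enzyme that acetylates polyamines (0.89), Mpp1 (0.86) and Ssb (0.86). With Fabp4 they were B2m, the light chain of class I histocompatibility molecules (0.93), the elongation factor gene Eef1b2 (0.90) and Sap18 (0.86). With Lpl they were Cspp1 (0.85), the calcineurin subunit gene Ppp3r1 (0.83) and the splicing factor gene Srsf10 (0.83), and with Car3 they were the ankyrin gene Ank1 (0.82), Sec16a (0.78) and the digestive enzyme gene Ctrb1 (0.76). These are the highest of many. When the orientation means were left in, the top 3 of Plin2 and Fabp4 shared 2 genes each with these, that of Car3 shared 1 and that of Lpl 0.

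Genes of fat cells other than the members were examined for the same pattern by animal. Of 17 such markers, 11 were on the array and 6 could be tested, and 0 of the 6 passed in either the test against the pool or the test between mice, while 1 had an unadjusted p under 0.05 in limma against the pool, as had 16.8% of all genes. Their median was 0.05, as against -0.004 over all genes, and by mouse it was 0.02, 0.04, 0.10 and 0.06. Lipe, the hormone-sensitive lipase, was at -0.04, 0.24, 0.32 and 0.13 in mice 1 to 4 (adjusted p = 0.256 against the pool in limma). Cidea, a droplet fusion protein most abundant in brown fat, was at 0.17, 0.01, 0.22 and -0.11. Plin4, a droplet coat protein of fat cells, was at 0.05, 0.11, 0.11 and -0.07. The span of these 3 genes over the animals was 0.36, 0.33 and 0.19, where the median gene had 0.22. Plin2, Fabp4 and Car3 had wider spans, but they were picked with results of these arrays in view. Nothing is read from that difference, and the part of attached fat in the values of the members was not tested. Adipoq, the adipokine that best marks fat, gave a value on only 6 arrays (-0.44 to 0.24, median -0.04), and Cidec gave one on 10 (-0.23 to 0.92, median 0.05). Thrsp gave a value on 4 arrays (-0.04 to 0.26, median 0.14) and Trarg1 on 2 arrays of 1 mouse (median 0.19). The values of these sparse markers are not set out by mouse.

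Markers of other cells that make a member, and of neighbouring tissue, were read the same way. Skeletal muscle markers, set beside Car3, had medians of 0.05, 0.02, 0.10 and 0.10 in mice 1 to 4, and of the 6 tested of 17 listed 0 passed either test (1 at an unadjusted p under 0.05 in limma). Eno3 was at 0.17, Myh4 at 0.08 and Tnnt3 at 0.06. Macrophage markers, set beside Fabp4 and Lpl, had medians of -0.07, 0.05, 0.08 and -0.05, and of 6 tested of 13 listed 0 passed (0 at an unadjusted p under 0.05 in limma). Mpeg1 was at -0.12, C1qc at 0.11 and Cd68 at 0.07. Endothelial markers, set beside Fabp4, had medians of -0.02, -0.13, -0.13 and -0.02. Of 7 tested of 13 listed, 0 passed and 2 had an unadjusted p under 0.05 in limma, where 16.8% of all genes did. The ratio was negative in 6 of these 7 markers, with a median of -0.07 over mice, as against -0.004 over all genes. It was -0.19 for Esam, -0.17 for Ehd3 and -0.10 for Plvap. The 2 adrenal markers tested of 10, Star at 0.03 and Fdx1 at 0.01, had a median of 0.02 over mice, and 0 passed (0 at an unadjusted p under 0.05 in limma). Svs5, a secretory protein gene of the seminal vesicle, was at 0.21, -0.09, 4.94 and 1.09, and passed between mice (adjusted p = 6.77e-06 in the moderated F test, and 0.168 without mouse 3). Mouse 3, where it was highest, was also among the higher animals for Car3 and the lower ones for Plin2. The part of these tissues in the values of the 4 genes was not tested.

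Other genes of the droplet surface and of triglyceride turnover did not move in 1 direction. Of 28 listed genes 13 were tested, 6 had a positive and 7 a negative ratio, and the median was -0.02. In limma 5 of the 13 had an unadjusted p under 0.05 against the pool, where 16.8% of all genes did, and 1 passed after adjustment. Hsd17b11, a droplet-associated dehydrogenase, fell, at -0.45, -0.41, -0.31 and -0.57 in the 4 mice (mean -0.43, SE 0.05, adjusted p = 0.0216 in limma). It was the 1 gene of the list to pass against the pool, and lost the call without mouse 1, 2 or 4 (adjusted p = 0.122, 0.103 and 0.157) and without array 3 of mouse 3 (adjusted p = 0.06). Rab18, a small GTPase found on droplets, was the 1 gene of the list to pass between mice (adjusted p = 0.0255), at 0.01 and 0.05 in mice 1 and 2 and -0.58 and -0.45 in mice 3 and 4. It did not pass without mouse 1, 2 or 3 (adjusted p = 0.127, 0.128 and 0.16). Like Plin2 it was lowest in mice 3 and 4, although Plin2 was apart in mice 1 and 2 and Rab18 was not. Mgll, the lipase of the last step of triglyceride breakdown, was at 0.18 (adjusted p = 0.148).

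Partners of lipoprotein lipase and genes of fatty acid uptake gave 0 calls among 9 tested of 22 listed in either test. In limma 4 of the 9 had an unadjusted p under 0.05 against the pool, where 16.8% of all genes did. The median of the 9 was 0.05, as against -0.004 over all genes. Apoe, the apolipoprotein through which remnant particles are taken up, was at 0.05, 0.47, 0.46 and 0.25 in the 4 mice (mean 0.31, adjusted p = 0.148). The fatty acid transporter Slc27a1 was at 0.15 (adjusted p = 0.185), and the acyl-CoA synthetase Acsl5 at -0.13 (adjusted p = 0.306). Angptl4, also listed with the PPAR alpha targets below, was at 0.51, -0.29, 0.05 and 0.16 in mice 1 to 4. Its range was 0.80, just short of a call between mice (adjusted p = 0.0574 in the moderated F test). Among other fatty acid and acyl-CoA binding proteins, Fabp5 was at -0.10 (adjusted p = 0.326) and Acbd3 at -0.13 (adjusted p = 0.343), the 2 tested of 12, with 0 at an unadjusted p under 0.05 in limma.

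Targets of PPAR alpha, the receptor under which Plin2 is known to be induced, had a positive ratio in 6 of 7 tested (18 listed). The median of the 7 was 0.12, as against -0.004 over all genes. Against the pool 0 passed, and 3 of the 7 had an unadjusted p under 0.05 in limma, where 16.8% of all genes did. Cyp4a14, a fatty acid hydroxylase, differed between mice (adjusted p = 6.34e-06): it was at 1.56 and 0.95 in mice 1 and 2 and at -0.34 and 0.01 in mice 3 and 4. It shares with Plin2 the low values in mice 3 and 4, but it was highest in mouse 1, where Plin2 was below the pool. Cpt2, which carries long-chain fatty acids into oxidation, was at 0.19 (adjusted p = 0.172) and the oxidation enzyme gene Acadm at -0.18 (adjusted p = 0.174).

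Genes of fatty acid synthesis had a positive ratio in 7 of 8 tested genes of 13 listed, with 0 calls in either test. Their median was 0.06, as against -0.004 over all genes. In limma 1 of the 8 had an unadjusted p under 0.05 against the pool, where 16.8% of all genes did. The transcription factor gene Mlxipl was at 0.12 (adjusted p = 0.307), the elongase gene Elovl6 at 0.11 (adjusted p = 0.36) and Acly, which makes cytosolic acetyl-CoA, at 0.10 (adjusted p = 0.29). Of 15 carbonic anhydrases other than Car3, 6 were tested and 0 passed against the pool (median 0.05, 1 at an unadjusted p under 0.05 in limma). Car14, a membrane-bound form, was at 0.22 (adjusted p = 0.151), with Car13 at 0.06 and Car15 at 0.05. Car2, the main cytosolic form of the kidney, differed between mice at 0.21, 0.26, -0.20 and -0.17 (adjusted p = 0.0389), and did not pass without mouse 1, 2 or 3 (adjusted p = 0.136, 0.215 and 0.213), nor without array 3 of mouse 3 or array 1 of mouse 4 (adjusted p = 0.0815 and 0.0584). Mouse 3, highest for Car3, was thus below the pool for Car2.

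**Figure D3:**
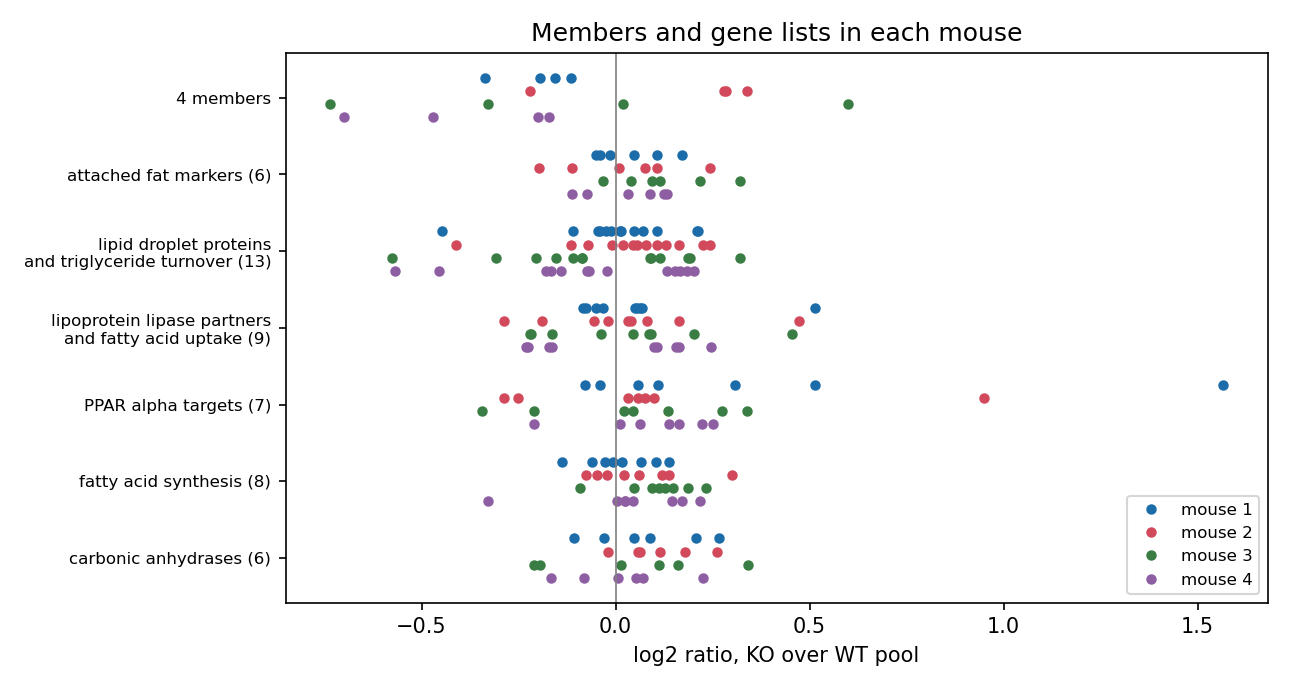
Log2 ratio of knockout over wild-type pool (horizontal axis) for the 4 members and for the tested genes of 6 lists (rows, number of genes in brackets), 1 point per gene and mouse. The fat markers lie between -0.20 and 0.32 in all mice, the members between -0.73 and 0.60, and the farthest points to the right are Cyp4a14 in mice 1 and 2. The members were picked with results of these arrays in view, so nothing is read from their wider spread.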

How the data were processed

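Kidney RNA of 4 knockout mice was hybridised with 1 wild-type pool on 16 arrays of spotted cDNA. Per the labels, the authors scanned the slides and quantified them with GenePix, subtracted background and scaled each array to a median ratio of 1. The authors deposited 1 log2 ratio per probe and array; the numerator and the filter behind blank cells are not given in the sources used here. An array carried between 10134 and 18400 values for 20205 probes, with deposited medians from -0.093 to 0.0076, and 11723 probes name 1 gene by the platform annotation.

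Each array was turned to knockout over pool, read as channel 1 over channel 2, with its median set to 0. Arrays, as technical replicates, were averaged within each orientation and these averages within each mouse, a probe needed a value in each orientation of each mouse, and a gene was the mean of its single-gene probes. Ratios were tested against 0, two-sided, with limma 3.58.1 in R 4.3.3 (Benjamini-Hochberg over 6191 genes), which leaves out the spread of wild-type animals. Mice were compared at array level by an F test with a dye term and limma's variance moderation, which takes arrays as independent. Both tests were tested on simulated data.

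The genes, lists and tests were chosen with earlier results of these data known. By rule the text names all 4 genes, list genes past a threshold, up to 3 per list with the largest ratio, and the 3 genes most like each member among those with at least 14 values. Adipoq, Cidec, Thrsp, Trarg1, Angptl4 and the overlaps remarked on were named after their values were seen. Alternatives covered centring, array scale, probe choice, orientation, array pairs, left-out mice, random mouse blocks and variance, and, added after the data were seen, 2 left-out arrays.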

Additional observations from a re-analysis of the deposited data

Results flagged for a closer look

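Among 53 genes examined, 2 had a mouse far from the other 3, by Dixon's rule on the gap to the nearest mouse over the whole range, which chance gives in about 1 of 20 genes. Elovl6 was at 0.30 in mouse 2, against 0.02 to 0.06 in the others. Eno3 was at 0.28 in mouse 4, against 0.13 to 0.15 in the others. The SD between arrays within a mouse was 0.225 for Elovl6 and 0.278 for Eno3. Neither gene passed between mice (adjusted p = 0.623 and 0.919 in the moderated F test).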

How the results depend on the processing

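Over 112 repeats of the means and ranges of the 4 genes under the alternatives, 102 stayed within 1 SD of the value reported. That SD is the one over the 4 mice, and leaving out 1 mouse cannot move a mean so far. Changes of side, as for Fabp4 without mouse 4 and Car3 without mouse 3, fall within it too. The 102 are thus no measure of stability. With the values as deposited, or with the arrays scaled alike, 13 and 9 genes passed against the pool. The counts that moved most were 40 for genes whose probes had values on all arrays (Car3 has no such probe), 4 on arrays 1 and 2, 8 on arrays 3 and 4, 1 with knockout RNA in channel 2 alone, 1 to 6 with a mouse left out, and 403 with 16 arrays and the mouse as a random block, where the correlation within mouse was 0.054 and arrays counted nearly as animals. With the ordinary variance of each gene in place of limma's, 0 genes passed and 727 were at an unadjusted p under 0.05. Between mice the count was 31 on arrays 1 and 2, 22 on arrays 3 and 4, and 42 to 140 with a mouse left out (fits with fewer arrays), and it was 111 without the dye term. Read as channel 2 over channel 1, Plin2 would be at 0.37 and Lpl at 0.23. The mean of Lpl was -0.15 and -0.31 with knockout RNA in channel 1 and 2 alone. The range of Lpl was 0.26 with its probe of the most values, likewise 0.26 with probes on all arrays, and 0.34 on arrays 3 and 4. With a mouse left out, ranges were 0.40 to 1.01 for Plin2, 0.45 to 0.81 for Fabp4, 0.48 (without mouse 3) to 0.80 for Car3 and 0.049 to 0.157 for Lpl. Causes of the other shifts were not tested. On arrays 1 and 2 alone Car3 had too few values to be read. Hsd17b11 did not pass on arrays 1 and 2 or with knockout RNA in channel 2 alone, and neither Rab18 nor Car2 passed on either pair of arrays alone. Signal over background is unknown, since only ratios were used.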
